A study of Rattus norvegicus with 8 samples.

Results

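The BCL2 family survival and death genes were examined in rat whole blood. The members were chosen by symbol: the anti-apoptotic genes Bcl2, Bcl2l1, Mcl1 and Bcl2a1, the effectors Bax and Bak1, and the BH3-only genes Bid, Bcl2l11, Bbc3 and Bad. All 10 were found among the 17446 genes counted. RNA from the whole blood of male wild type Wistar rats, 12 to 14 weeks old at the start, was sequenced in 8 libraries from 2 models of hypertension, with 2 libraries before and 2 after Chios mastic gum (CMG), a resin from Pistacia lentiscus var. Chia. In the AngII model, angiotensin II was infused at 0.4 mg/kg/day by osmotic minipump, and blood was collected at week 1, before CMG, and at week 5. In the DOCA–HS model, deoxycorticosterone acetate was given weekly at 100 mg/kg with 0.9% NaCl and 1% KCl in the drinking water, and blood was collected at week 3, before CMG, and at week 7. Both after groups received CMG at 220 mg/kg daily by gavage for 4 weeks. No untreated control library was analysed here, so the effect of CMG and that of 4 further weeks of the model cannot be told apart. Rats were bled at both times, but the sources do not say whether the libraries before and after CMG came from the same rats or whether replicates were separate rats, so p-values measure the spread between these libraries.

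The BCL2 family sets whether a cell commits to mitochondrial apoptosis. BAX and BAK1 open pores in the outer mitochondrial membrane, through which cytochrome c leaves to activate caspases. The anti-apoptotic proteins hold these effectors and the BH3-only proteins in check, and BH3-only proteins carry death signals by binding them. In blood, MCL1 and BCL2A1 are known for the survival of short-lived myeloid cells, BCL2 for that of lymphocytes, and BCL-XL, the main product of Bcl2l1, for that of erythroid cells and platelets.

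Total counts were 4149104 to 13205565 per library, and 61.9% to 84.3% of them fell on 2 hemoglobin genes. The library DOCA–HS after replicate 2, here called the shallow library, stood apart, with 4149104 counts in all, 651764 outside the hemoglobin genes and 2686 genes at 10 or more counts, against 6097 to 8280 such genes in the other 7 libraries. In that library 3 members had no read and 7 members had fewer than 10, so the log2 fold changes of the members after against before CMG in DOCA–HS are given with and without it. Levels are given as normalized CPM, the count divided by the size of its library and scaled over all 8 libraries. A read was worth 0.703 normalized CPM in DOCA–HS after replicate 2 and 0.0554 to 0.169 in the others. A count of 0 in that library allows up to 2.11 normalized CPM (3 counts). Markers of T cells, B cells, cytotoxic lymphocytes, monocytes, neutrophils, erythroid cells and platelets were detected in every library as lists, while Gp1bb of platelets had no read in any library and Cd4, Cd5, Cd28, Blk and Cd14 had none in the shallow one. In bulk blood, a lower level can come from fewer cells of a type or from less RNA per cell, and these cannot be told apart.

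The promoters of Bak1, Mcl1, Bcl2l1 and Bad are shown, since the family is controlled in part through its promoters. RefSeq promoters of build GRCr8, 250 bases before to 50 after the start, were found for 8 of the 10 members (Bax and Bbc3 are not among them), in 11 entries, 4 of them for Bcl2l1. Those below are for Bak1 (chr20:5110925-5111224, minus strand), Mcl1 (chr2:185907918-185908217, plus strand), the furthest upstream of the Bcl2l1 starts (chr3:161764726-161765025, minus strand) and Bad (chr1:213562864-213563163, plus strand), each 5′ to 3′ along its gene. Capitals mark matches on either strand to the GC box GGGCGG, the ETS motif CCGGAAG, the STAT motif TTCNNNGAA or the FOXO motif GTAAACA.
Bak1: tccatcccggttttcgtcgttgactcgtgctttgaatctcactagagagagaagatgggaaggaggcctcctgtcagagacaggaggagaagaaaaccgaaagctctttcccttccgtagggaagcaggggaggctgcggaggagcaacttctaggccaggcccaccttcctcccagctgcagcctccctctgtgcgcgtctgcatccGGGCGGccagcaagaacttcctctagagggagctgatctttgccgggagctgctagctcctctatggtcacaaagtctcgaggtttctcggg
Mcl1: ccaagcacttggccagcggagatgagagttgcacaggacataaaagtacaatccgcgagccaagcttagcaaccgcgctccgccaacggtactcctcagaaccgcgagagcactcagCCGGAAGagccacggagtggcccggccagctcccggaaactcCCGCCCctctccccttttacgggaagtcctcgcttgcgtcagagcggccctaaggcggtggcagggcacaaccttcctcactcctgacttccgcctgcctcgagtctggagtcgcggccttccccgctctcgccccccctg
Bcl2l1: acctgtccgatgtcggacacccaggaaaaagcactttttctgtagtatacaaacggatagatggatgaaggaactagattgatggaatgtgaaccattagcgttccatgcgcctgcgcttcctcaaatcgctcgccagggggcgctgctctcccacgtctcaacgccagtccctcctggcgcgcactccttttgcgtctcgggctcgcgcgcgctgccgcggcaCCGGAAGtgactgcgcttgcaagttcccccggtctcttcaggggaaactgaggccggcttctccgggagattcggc
Bad: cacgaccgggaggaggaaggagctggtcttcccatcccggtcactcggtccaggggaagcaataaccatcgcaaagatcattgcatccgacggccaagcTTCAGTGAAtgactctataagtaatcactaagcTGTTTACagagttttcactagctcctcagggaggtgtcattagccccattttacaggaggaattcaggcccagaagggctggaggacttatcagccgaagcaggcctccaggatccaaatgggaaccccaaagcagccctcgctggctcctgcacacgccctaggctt

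The Bak1 promoter held a GC box, first base at -42 from the start. The Mcl1 promoter held a GC box at -91 and an ETS match at -133, and the Bcl2l1 promoter shown held an ETS match at -26. In the Bad promoter, the FOXO letters stood at -118 and the STAT letters at -151. A FOXO match was also found in the Bcl2l11 promoter, so 2 of the 8 members held one, and 3.78% of all 33469 promoters did. A GC box was found in 5 of the 8 members, the ETS letters in 3 and the STAT letters in 2, and over all promoters these shares were 33.1%, 8.75% and 8.87%. Bcl2l1 entered with 4 promoters and the other members with 1 each. The GATA letters AGATAA (11.6% of promoters) and the CRE letters TGACGTCA (1.83%) were found in 0 of the 8 members. These matches describe the letters of the window and say nothing of binding.

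The plot of normalized CPM by library shows the main features of the members. Bak1 was higher after CMG in the AngII model. On this scale Mcl1 lay lower after CMG in both models without passing the test. Bax lay higher after CMG in the DOCA–HS model, most of all in the shallow library, without passing the test. Bcl2l1 ranged widely between libraries of the same group.

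**Figure D1:**
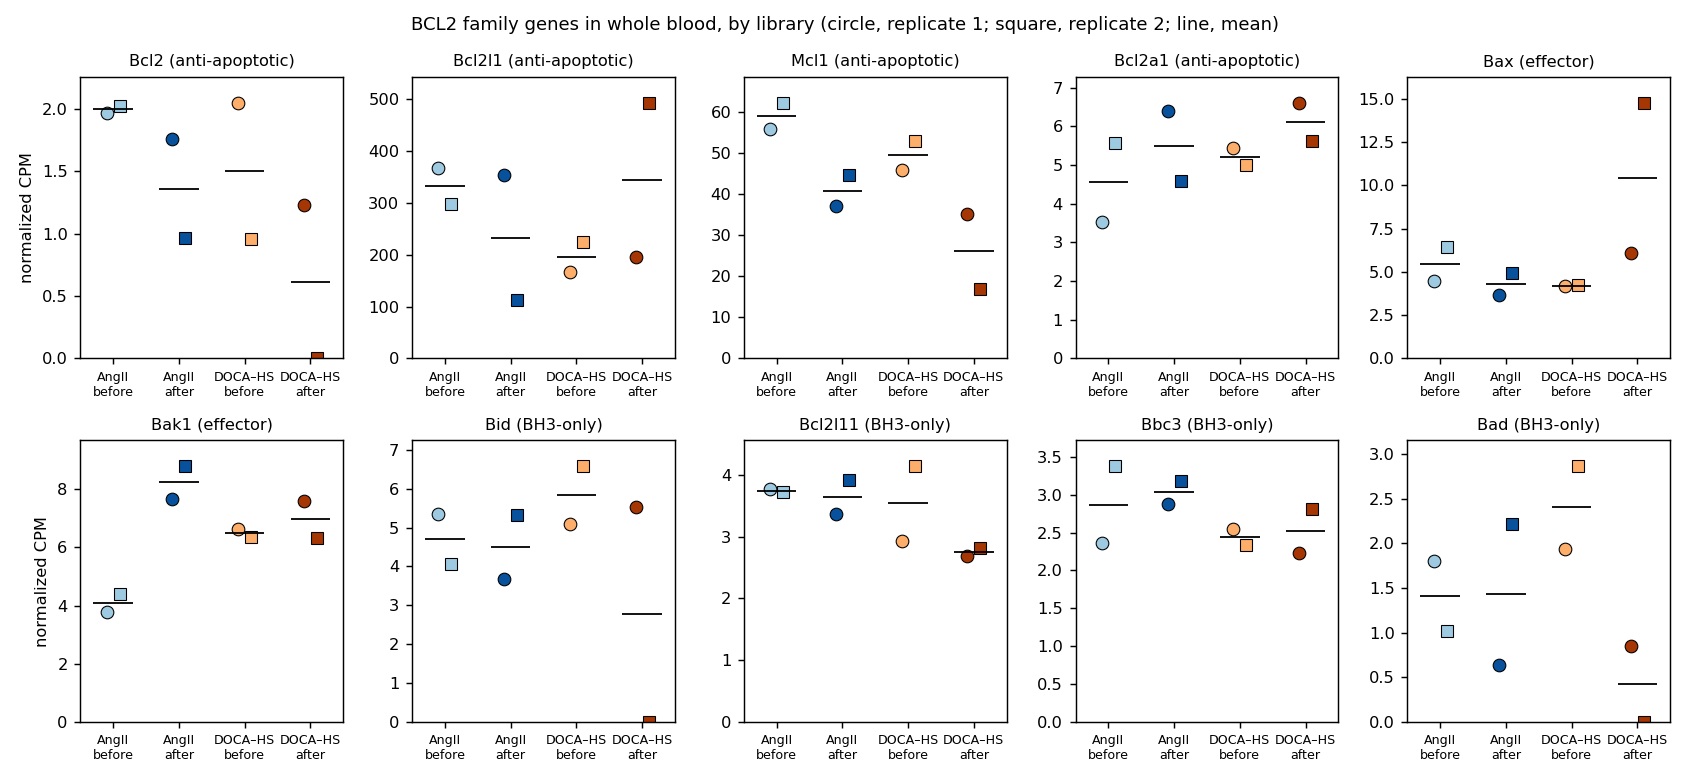
Normalized CPM (y axis, linear from 0, a scale for each gene) of the 10 BCL2 family genes in the 8 libraries, by group (x axis). Circles are replicate 1, squares replicate 2 and lines the mean of 2 libraries. The AngII libraries after CMG lie at 7.68 and 8.80 for Bak1, above 3.77 and 4.39 before it, and the squares of DOCA–HS after CMG lie at 0 for Bcl2, Bid and Bad.

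The first comparison asked which members differed after against before CMG in the AngII model. A gene is called here where its unadjusted p was 0.05 or less in the edgeR quasi-likelihood test. Of the 10 members 1 was called, against 6.65% of the 7201 genes tested. None passed the criterion of the study, which also asks for a log2 change larger than 1.5 up or down (1.24% of genes), and 0 of 7201 genes had an adjusted p-value under 0.05, while DESeq2 gave 3 such genes, none of them a member. The 2 libraries of each group did not overlap for 3 of 10 members, against 39.9% of all genes tested. The median log2 fold change of the members was -0.03, and that of all genes was -0.01.

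Among the anti-apoptotic genes in the AngII model, Mcl1, whose short-lived protein binds BAK1 and BIM, measured 55.8 and 62.3 normalized CPM before CMG and 37.1 and 44.7 after it. Both libraries after CMG were lower than both before it, with a log2 fold change of -0.51 (SE 0.31, adjusted p = 0.778), and it was not called. With total counts as the scale it was -0.10, and with total counts outside hemoglobin -0.09, and under both AngII after replicate 2 lay above both libraries before CMG. Bcl2, the founding member, measured 1.97 and 2.03 before and 1.76 and 0.961 after CMG, on 11 to 25 counts per library. These groups did not overlap either, with a log2 fold change of -0.61 (SE 0.50, adjusted p = 0.823). This was -1.08 without AngII after replicate 1 and -0.16 without AngII after replicate 2, and on total counts the groups overlapped. Bcl2a1, which encodes the NF-kB target A1, measured 3.54 and 5.57 before and 6.40 and 4.59 after CMG, and its groups overlapped (log2 fold change 0.31, SE 0.35).

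In the AngII model Bak1, the effector that resides in the mitochondrial outer membrane, measured 3.77 and 4.39 normalized CPM before CMG against 7.68 and 8.80 after it, a mean of 4.08 ± 0.438 against 8.24 ± 0.794 (SD, n = 2). Both libraries after CMG were above both before it, on counts of 48 and 26 before and 48 and 119 after. The log2 fold change was 1.05 (SE 0.29), above that of 96.3% of the genes tested. Bak1 was called, with an adjusted p = 0.628 in edgeR. It was between 0.92 and 1.45 over the 13 alternative settings and kept its sign in each. The call was lost in 1 of the 13, without AngII before replicate 1 (0.92).

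Beside Bak1, several leukocyte markers were called higher after CMG in the AngII model. These were Prf1 (log2 fold change 1.19) and Ncr1 (1.17) of the cytotoxic lymphocyte list, Csf1r (1.199), Cd68 (0.72) and Fcgr3a (1.29) of the monocyte list, Cxcr2 (0.76) of neutrophils and Cd22 (0.85) of B cells. Over the whole lists, 2 of 4 tested cytotoxic markers, 3 of 7 monocyte markers, 1 of 8 neutrophil markers and 1 of 7 B cell markers were higher, while 2 of 10 T cell markers, Cd3d and Cd3g, were lower. Over all genes tested in this model, 5.04% were called higher and 1.61% lower. Each of these marker calls was lost in at least 1 of the 4 fits with a library left out, and those of Cd68 and Cxcr2 in all 4. The summed normalized CPM of the cytotoxic list was 28.1 and 30.2 before and 58.4 and 50.1 after CMG, and that of the monocyte list 419 and 403 before and 521 and 518 after, with no marker of either list at 0. All 9 erythroid markers had a log2 fold change below 0 in this model (median -0.74, against -0.01 over all genes), and none was called. The part of these markers in the level of Bak1 was not tested.

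Bax, the effector that moves from the cytosol to mitochondria, measured 4.48 and 6.42 before and 3.68 and 4.96 after CMG in the AngII model. Its groups overlapped, with a log2 fold change of -0.27 (SE 0.33). Of the BH3-only genes, Bid, which links death receptors to mitochondria, had a log2 fold change of -0.04 (SE 0.34). Bcl2l11, the gene of BIM, gave -0.01 (SE 0.32) and Bbc3, the p53 target PUMA, gave 0.14 (SE 0.36). Bad, which is held inactive by phosphorylation, gave 0.08 (SE 0.63) on 4 to 30 counts per library, and this ran from -1.17 without AngII after replicate 2 to 0.60 without AngII before replicate 1. The groups overlapped for all 4 BH3-only genes, and none was called.

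The same question in the DOCA–HS model again gave 1 called member, against 3.17% of the 7720 genes tested. This member, Bad, was also the 1 of 10 past the criterion of the study, which 2.05% of all genes passed. No gene reached an adjusted p-value under 0.05 in the main edgeR fit, DESeq2 or limma-voom. Without a filter on low counts edgeR gave 21 such genes of 11208, none of them a member. The groups did not overlap for 5 of 10 members, against 35.8% of genes. Mcl1, Bcl2l11 and Bad were lower and Bax and Bcl2a1 higher after CMG, but under total counts, where the median of all genes was -0.76, Bax alone had a log2 fold change above 0. The members had a median log2 fold change of -0.20, against -0.04 over all genes. Leaving out DOCA–HS after replicate 1, so that the shallow library stood alone, gave 5 called members among 2528 called genes of 8126, and leaving out DOCA–HS after replicate 2 gave 1 among 788 of 8366, against 245 of 7720 with all 4 libraries.

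In the DOCA–HS model Bad measured 1.94 and 2.87 normalized CPM before CMG against 0.846 and 0 after it, on 35, 27, 11 and 0 counts. Both libraries after CMG were lower than both before it, but the 0 of the shallow library allows up to 2.11 normalized CPM, which is within the levels before CMG. The log2 fold change was -1.71 (SE 0.72), and Bad was called, with an adjusted p = 0.997 in edgeR. Without the shallow library, which left 1 library after CMG, the log2 fold change was -1.45. The call was lost in 6 of the 12 alternatives run, among them DESeq2 (-1.92), the scaling to total counts (-2.35) and to total counts outside hemoglobin (-2.01), and the fits without DOCA–HS before replicate 1 (-2.10) or before replicate 2 (-1.52).

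In the DOCA–HS model Bax measured 4.15 and 4.25 normalized CPM before CMG against 6.07 and 14.8 after it. Both libraries after CMG were higher than both before it, and the 14.8 came from 21 counts of the shallow library, with an exact Poisson 95% interval of 9.14 to 22.6 normalized CPM for counting error only. The log2 fold change was 1.18 (SE 0.54, adjusted p = 0.997), and Bax was not called. It was 0.54 without the shallow library, also not called, and 1.81 with the shallow library as the lone sample after CMG, where it was called and the lone sample was assumed to vary like the other group. It was also called without a filter on low counts (1.12) and with all 8 libraries in 1 fit (1.13). Scaling to total counts, hemoglobin included, gave 0.13.

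In the DOCA–HS model Mcl1 measured 45.92 and 53.01 normalized CPM before CMG against 35.29 and 16.88 after it. Both libraries after CMG were lower, with a log2 fold change of -0.89 (SE 0.52, adjusted p = 0.997), which was not called. It was -0.48 without the shallow library. The log2 fold change of Mcl1 was negative under all alternative settings run in each model, and it was called in 1 of them, without DOCA–HS after replicate 1 (-1.55).

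The other members of the DOCA–HS model lay within the spread of their libraries in the test. Bak1 measured 6.65 and 6.37 before and 7.61 and 6.33 after CMG (log2 fold change 0.13, SE 0.44, and 0.23 without the shallow library). Bcl2a1 measured 5.43 and 4.99 before and 6.61 and 5.63 after CMG, and though its groups did not overlap, its log2 fold change was 0.26 (SE 0.44), and 0.35 without the shallow library. Bcl2l11 measured 2.94 and 4.14 before and 2.69 and 2.81 after CMG, also with groups that did not overlap (log2 fold change -0.36, SE 0.49, and -0.35 without the shallow library). The 2.81 came from 4 counts, with an interval of 0.766 to 7.20 that also spans both values before CMG. Bbc3 stayed between 2.23 and 2.81 in the 4 libraries, with a log2 fold change of -0.05 and, without the shallow library, -0.13. Bid measured 5.10 and 6.59 before and 5.54 and 0 after CMG, so the library without a read of Bid lay below the others even at its limit of 2.11. The log2 fold change of Bid was -0.59, and -0.05 without that library. Bcl2 measured 2.05 and 0.956 before and 1.23 and 0 after CMG, where the limit of 2.11 exceeds each of the other values, so a difference was not detectable at this depth (log2 fold change -0.62, and -0.35 without the shallow library).

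**Figure D2:**
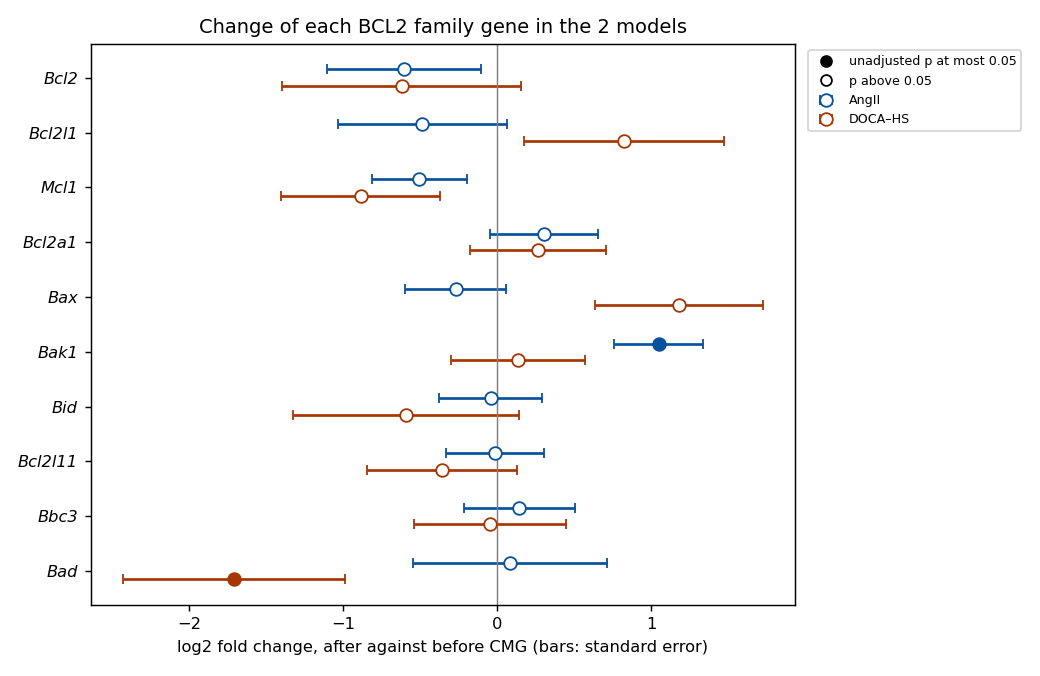
Log2 fold change after against before CMG (x axis, bars are the standard error of the edgeR fit) of each gene (y axis) in the AngII model (blue) and the DOCA–HS model (brown), 2 libraries a group. Filled points are called (unadjusted p of 0.05 or less), which holds for Bak1 in AngII (1.05) and Bad in DOCA–HS (-1.71).

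**Figure D3:**
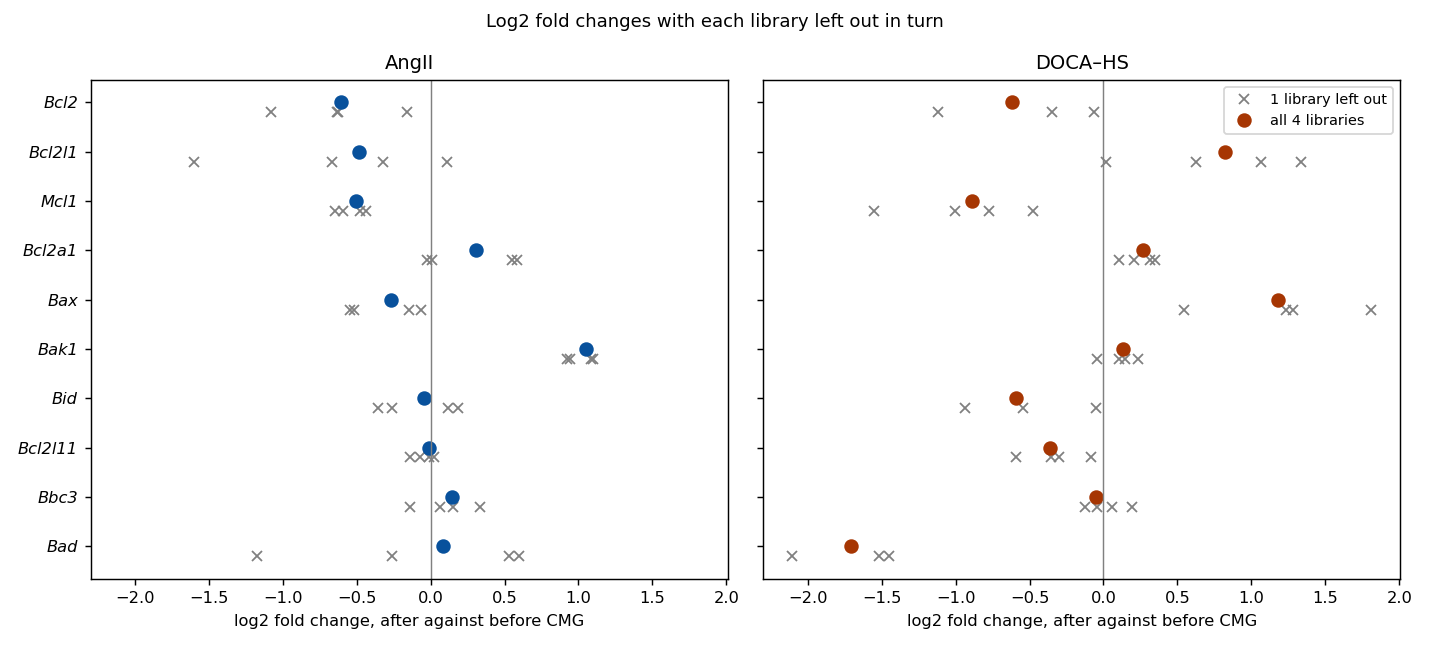
Log2 fold change after against before CMG (x axis) of each gene (y axis) with all 4 libraries of a model (filled points) and with each library left out in turn (crosses). Crosses are not drawn for Bcl2, Bid and Bad without DOCA–HS after replicate 1, since the group after CMG then has no read. Bak1 in AngII stays between 0.92 and 1.097, while Bcl2l1 in AngII runs from -1.60 to 0.11.

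The plot with each library left out shows how far a member rests on 1 library. Bcl2l1 moved most among the genes with many counts. In the AngII model, Bcl2l1 measured 367 and 297 normalized CPM before and 354 and 113 after CMG, and in the DOCA–HS model 167 and 225 before and 197 and 494 after CMG. The groups overlapped in both models. The log2 fold changes were -0.49 (SE 0.55, adjusted p = 0.852) and 0.82 (SE 0.65, adjusted p = 0.997), neither of them called. Without AngII after replicate 1 the former was -1.60 and was called, and without AngII after replicate 2 it was 0.11. Without the shallow library the latter was 0.01, without DOCA–HS after replicate 1 it was 1.33 and was called, and under total counts it was -0.34.

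In normalized CPM, the library with the highest erythroid marker RNA also had the highest Bcl2l1 level. In AngII before CMG, however, the library with more erythroid marker RNA had less Bcl2l1. The summed normalized CPM of 9 erythroid markers, none of them at 0, was 20928 and 27504 before and 20619 and 13234 after CMG for AngII, and 10445 and 14734 before and 11125 and 36361 after CMG in the DOCA–HS model. The highest library had 4.38 times the normalized CPM of Bcl2l1 in the lowest. Counted per 1000 erythroid marker reads, Bcl2l1 had 17.5, 10.8, 17.2 and 8.51 reads in the AngII libraries and 16.0, 15.2, 17.7 and 13.6 in those of DOCA–HS, and the highest was 2.08 times the lowest. Bnip3l, the mitophagy receptor NIX of maturing red cells and a more distant relative of the family, was at 4083, 5106, 4427 and 2419 normalized CPM in the AngII libraries and at 2134, 2896, 3102 and 11823 in those of DOCA–HS. As with Bcl2l1, its lowest AngII level was in after replicate 2 and its highest level of all was in the shallow library. The platelet list, summed over genes of which Gp1bb was at 0 throughout, was at 615 and 175 before and 553 and 59.3 after CMG in AngII, and at 208, 292, 604 and 956 in the DOCA–HS libraries in the same order. The part of red cell or platelet RNA in the level of Bcl2l1 was not tested. Bcl2l1 took 58.9% to 90.9% of the reads counted on the 10 members, a share that also depends on transcript length.

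**Figure D4:**
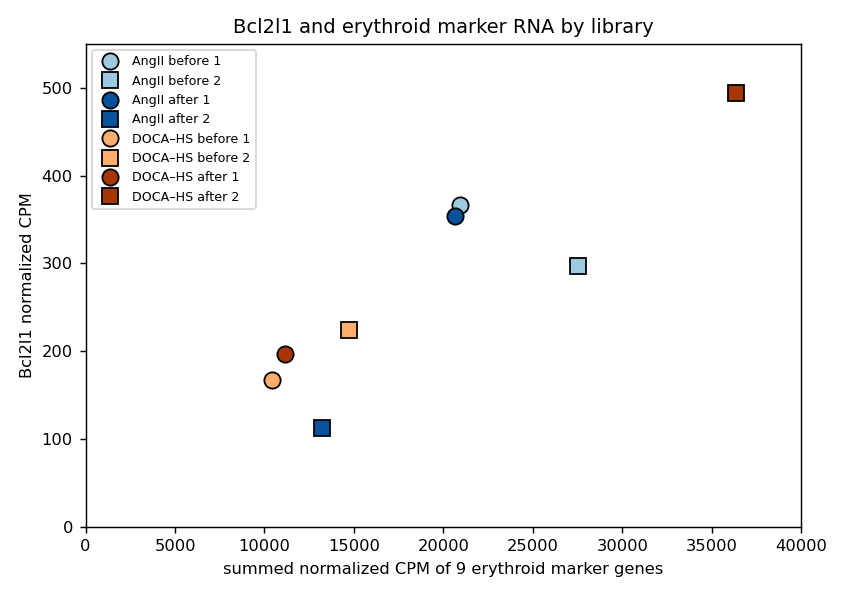
Normalized CPM of Bcl2l1 (y axis) against the summed normalized CPM of 9 erythroid marker genes (x axis) in the 8 libraries. Circles are replicate 1 and squares replicate 2, and the highest point on both axes is DOCA–HS after replicate 2, at 494 and 36361, while the lowest Bcl2l1 level is AngII after replicate 2, at 113.

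Whether a member changed differently in the 2 models was tested as an interaction over all 8 libraries. Bax was the 1 member of 10 called, against 3.74% of 7994 genes. Its change in DOCA–HS exceeded that in AngII by 1.43 on the log2 scale (SE 0.64, adjusted p = 0.881). Without the shallow library the difference was 0.82 and was not called, and under total counts it was 0.00. The call was lost in 11 of the 16 alternatives. Bak1 differed by -0.89 (SE 0.48, adjusted p = 0.881), so its larger change in AngII was not shown to differ from that in DOCA–HS. Bad differed by -1.79 (SE 1.00) and Bcl2l1 by 1.33 (SE 0.89), neither of them called. The difference of Bad was -0.51 without AngII after replicate 2, and it was called without AngII after replicate 1 (-2.29) and without a filter (-1.80). That of Bcl2l1 was -0.05 under total counts, 0.52 without the shallow library and 0.71 without AngII after replicate 2, and it was called without AngII after replicate 1 (2.36). Mcl1 differed by -0.35 (SE 0.60), and by 0.05 without the shallow library. The other 5 members differed by -0.48 to -0.002.

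Before CMG, 0 of 10 members were called between DOCA–HS and AngII in edgeR, and DESeq2 gave 0 too, against 3.38% of genes. The groups did not overlap for 5 of 10 members, against 45.4% of genes. Bak1 and Bad were higher in both DOCA–HS libraries, and Bcl2l1, Mcl1 and Bax were lower, though under total counts 9 of the 10 members had a log2 difference above 0 (median of all genes 0.86). All 9 erythroid markers (median -1.06, 1 of them called) and all 5 tested platelet markers (median -0.53) were also below 0, against a median of 0.06 over all genes. The part of these markers in the lower Bcl2l1 was not tested. The log2 difference of Bak1 was 0.68 (SE 0.34, adjusted p = 0.992). It was called under total counts outside hemoglobin (1.399) and when either DOCA–HS library after CMG, which is in neither group but enters the fit, was left out (0.67 without replicate 1 and 0.68 without replicate 2). After CMG, Bax alone was called, against 2.79% of genes, and was higher in DOCA–HS by 1.08 (SE 0.47, adjusted p = 1.00). Without the shallow library this was 0.47 and was not called. Bax was called after CMG in 4 of the 15 alternatives. It was not called in limma-voom, under either total-count scaling (0.45 with total counts) or without any 1 library from before CMG. The groups did not overlap for 5 of 10 members after CMG, against 26.6% of genes, with Bax higher and Mcl1, Bak1, Bcl2l11 and Bbc3 lower in DOCA–HS. The comparisons within and between models share libraries and are not independent.

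Survival and death genes were compared within each library as the log2 ratio of 2 counts after adding 0.5. Such a ratio needs no scaling between libraries, and its differences were not tested. In bulk blood its 2 genes can come from different cells, and the part of the cell mix in these ratios was not tested. The ratio of Mcl1 to Bax was 3.63 and 3.26 before and 3.31 and 3.17 after CMG for AngII, and 3.46 and 3.62 before and 2.53 and 0.19 after CMG in the DOCA–HS model. Both DOCA–HS libraries after CMG were below both before it, with a mean difference of -2.18, which was -1.01 without the shallow library, and the groups of the AngII model overlapped. The ratio of Mcl1 to Bcl2l11, the survival gene to a BH3-only ligand of its protein, was 3.87 and 4.04 before and 3.435 and 3.501 after CMG in AngII. It was 3.95 and 3.66 before and 3.69 and 2.44 after CMG in DOCA–HS, where the groups overlapped. The ratio of Bcl2l1 to Bax was 5.32 and 5.71 before and 5.01 and 5.03 after CMG in DOCA–HS, so this ratio did not carry the high Bcl2l1 level of the shallow library. In AngII it was 6.34 and 5.51 before and 6.56 and 4.50 after CMG, with overlapping groups. The ratio of Bcl2 to Bax was -1.01 and -2.09 before and -2.27 and -5.43 after CMG in DOCA–HS, the last of these with no read of Bcl2, and its mean difference of -2.30 was -1.39 when 2 was added to each count and -0.72 without the shallow library. The groups of this ratio in AngII, and those of Bcl2 to Bcl2l11 in both models, overlapped.

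Beyond the 10 members, 13 further family genes were counted. Bok, Hrk and Bcl2l10 had no count in any library, and Bik, Bnip3 and Bcl2l14 had at most 4. In each model after against before CMG, 0 of the further genes tested (4 in AngII, 5 in DOCA–HS) were called in edgeR. Before CMG, Bmf, a BH3-only gene, was higher in DOCA–HS (4.38 and 2.66 normalized CPM) than in AngII (1.49 and 0.676), with a log2 difference of 1.60 (SE 0.55, adjusted p = 0.992). It was the 1 of 5 further genes tested that was called there, against 3.38% of all genes, and was singled out after its values were seen.

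Genes upstream and downstream of the family were also counted in the AngII model, where 5.04% of all genes tested were called higher and 1.61% lower. Of 11 tested apoptosome and caspase genes, 2 were higher and 0 lower, with a list median of 0.14. Casp8, the initiator caspase that cleaves BID, measured 2.28 and 2.70 normalized CPM before and 4.48 and 7.84 after CMG (log2 fold change 1.37, SE 0.37, adjusted p = 0.628). Htra2, a mitochondrial protease released through BAX and BAK1 pores, had a log2 fold change of 0.87 (adjusted p = 0.709). Of 6 inhibitors of apoptosis, 1 was higher, the ubiquitin ligase gene Birc3 (3.14 and 3.04 before, 5.76 and 6.43 after, log2 fold change 1.00, adjusted p = 0.628). Of 5 tested death receptor genes, 1 was higher, Tnfrsf1a, the gene of TNF receptor 1 (8.33 and 8.62 before, 15.7 and 17.3 after, log2 fold change 0.98, adjusted p = 0.628). All 5 had a log2 fold change above 0, with a list median of 0.65 against -0.01 over all genes. With a library left out, the call of Casp8 was lost without AngII after replicate 2 (0.88), as was that of Birc3 (0.91). The call of Tnfrsf1a was lost without either library before CMG (both 0.95), and Htra2 was called only without AngII after replicate 1 (1.014).

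Of 11 genes that bind or phosphorylate BAD, 2 were higher in the AngII model, against the same 5.04% of all genes. Ywhag, the 14-3-3 gamma gene whose product holds phosphorylated BAD in the cytosol, measured 1.41 and 1.35 before and 3.999 and 3.994 after CMG (log2 fold change 1.53, SE 0.37, adjusted p = 0.628). Pim2, a kinase of BAD, had a log2 fold change of 0.98 (adjusted p = 0.747) with overlapping groups, and its call was lost without AngII before replicate 1 (0.64) and without AngII after replicate 2 (0.33). None of the 3 voltage-dependent anion channel genes and none of the 9 tested p53 and FOXO genes was called in AngII, with list medians of -0.29 and -0.35.

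In the DOCA–HS model, 2 of 10 tested p53 and FOXO genes were called and both were higher, against 2.73% of all genes called higher and 0.44% lower. Ccng1, a p53 target, measured 13.9 and 9.45 normalized CPM before and 21.4 and 39.4 after CMG (log2 fold change 1.35, SE 0.51, adjusted p = 0.997). Aen, a p53-induced nuclease, measured 3.88 and 4.36 before and 9.92 and 7.73 after CMG (log2 fold change 1.14, SE 0.44, adjusted p = 0.997). Without the shallow library, which left 1 library after CMG, Ccng1 was at 0.87 and Aen at 1.29. Both calls were lost without either library before CMG (Ccng1 1.67 and 1.13, Aen 1.04 and 1.22). The call of Aen was also lost without DOCA–HS after replicate 1 (0.92). In the other 5 pathway lists (12 apoptosome and caspase genes, 6 inhibitors, 4 death receptor genes, 3 channels and 11 BAD partners tested), 0 genes were called in DOCA–HS. Their list medians were -0.29 to 0.13, against -0.04 over all genes. Among the marker lists of this model, Pf4 and Treml1 of platelets were higher and Lcn2 of neutrophils lower, that is 2 of 5 tested platelet markers and 1 of 8 neutrophil markers. The log2 fold changes were 1.72 for Pf4, 1.92 for Treml1 and -4.02 for Lcn2. Without the shallow library, which left 1 library after CMG, they were 1.32, 0.88 and -7.24. The -7.24 rests on DOCA–HS after replicate 1 alone, where 2 of the 9 neutrophil markers had no read. All 3 calls were lost without either library before CMG, and that of Lcn2 was also lost without DOCA–HS after replicate 1 (-0.97). Of the 7 B cell markers tested none was called and all were below 0, with a list median of -0.96.

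Between the models before CMG, Cdkn1a, Gadd45a and Foxo3 of the p53 and FOXO list were lower in DOCA–HS, with log2 differences of -1.66, -0.98 and -1.08, and Casp2, Dffb and Birc3 were higher. These are 3 of 10 p53 and FOXO genes, 2 of 12 apoptosome and caspase genes and 1 of 6 inhibitors, against 3.38% of all genes called. After CMG, Ccng1 was higher in DOCA–HS by 1.35 (adjusted p = 1.00) and Akt2, a kinase of BAD, was lower (log2 difference -0.96). These are 1 of 10 p53 and FOXO genes and 1 of 11 BAD partners, against 2.79% of all genes called, and 0 genes of the other 4 pathway lists were called. Of 8 tested neutrophil markers 1 was called, Lcn2, which was lower in DOCA–HS (log2 difference -3.62). All 7 B cell markers (median -0.58) and all 4 tested cytotoxic markers (median -0.46) were below 0. All 5 tested platelet markers were above 0 (median 0.80), against -0.04 over all genes. Markers of T cells, monocytes and erythroid cells went both ways.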

How the data were processed

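Whole blood RNA was sequenced in 8 libraries. The authors aligned single-end reads to the rn6 genome with HISAT2, counted them on genes by strand with HTSeq, and deposited raw, unnormalized counts. Hemoglobin annotations are described as removed, yet 2 hemoglobin genes remain in the counts. No value column was left unused (0). The authors used DESeq2. Here edgeR 4.0.16 (R 4.3.3) fitted all genes: filterByExpr, TMM normalization and the quasi-likelihood test, the 4 libraries of each model alone for after against before CMG, and all 8 libraries with 4 group means for differences between models. Calls were at an unadjusted p of 0.05 or less, with Benjamini-Hochberg adjusted p-values over all genes tested. With 2 libraries a group an exact permutation test cannot go below p = 0.333, so none was used. Levels are CPM with TMM factors over all 8 libraries, which differ by at most 4.39% from those of the fit of 1 model. Replicate libraries differed beyond counting error (chi-square over degrees of freedom 17.6 to 104). Intervals and limits from counts cover counting error only. Members and lists were chosen with earlier results of these data known. All 10 members are named. Of each further list, the genes named are those with p of at most 0.05 and groups that do not overlap, at most 5 per list and comparison, and Pim2, Vdac3, Ms4a1 and Dffb in the test between models, and further family genes were named after their values were seen. The fit of each model was first tested on simulated data. Alternatives were DESeq2 1.42.0, limma-voom (limma 3.58.1), other scalings and filters, the replicate number as a block, and each library left out in turn. Leaving a library out left 1 library in its group, so the spread in such a fit came from its other groups.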

Additional observations from a re-analysis of the deposited data

Results flagged for a closer look

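Groups of 2 libraries are too small to test for an outlying library. The test of the difference between the models in the change after against before CMG had an unadjusted p of 0.05 or less in edgeR for Bax (1.43 higher in DOCA–HS on the log2 scale), Ccng1 (1.78), Aen (1.30), Birc3 (-1.42), Dffb (-2.81) and the B cell marker Ms4a1 (-1.78), with an adjusted p = 0.881 for each. These are 1 of 10 members, 2 of 10 p53 and FOXO genes, 1 of 6 inhibitors and 1 of 12 apoptosome and caspase genes and 1 of 7 B cell markers, against 3.74% of all genes, and the call of Bax was lost in 11 of 16 alternatives. In the same test all 7 B cell markers were below 0 (median -1.11), while all 9 erythroid markers (median 1.24) and all 5 tested platelet markers (median 1.33) were above 0, against a median of -0.12 over all genes, and their part in these differences was not tested. Birc3 was higher after CMG in both AngII libraries and lower in both DOCA–HS libraries (5.76 and 6.43 normalized CPM against 3.14 and 3.04 before in AngII, 4.61 and 3.52 against 6.15 and 5.52 in DOCA–HS). The 3.52 is from the shallow library, where a read was worth 0.703 normalized CPM, so it rests on few reads. Dffb rests on 0 to 35 counts per library. Vdac3, a mitochondrial channel gene, was lower after CMG in both AngII libraries and higher in both DOCA–HS libraries. Its change differed by 1.07 (adjusted p = 0.881), which was not called.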

How the results depend on the processing

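Over the 10 members, no called log2 fold change changed sign under any alternative run. For the AngII change, 115 of 129 member values were counted as unchanged, and for the DOCA–HS change 102 of 123. A called member was unchanged where it kept its sign and its call, whatever the size of its move. A member not called was unchanged where it stayed uncalled and moved by no more than 1 SE. In the AngII model, the count of called members was 1, 0 by the criterion of the study, 0 at an adjusted p under 0.05, and 0 to 2 with a library left out (342 to 1386 genes called in all). In the DOCA–HS model it was 1, 0 at an adjusted p, in DESeq2, under both total-count scalings and at a minimum of 10 counts in every library (which left 3 members), 2 without a filter (505 of 11208 genes) and with all 8 libraries in 1 fit (349 of 7994), and 0 to 5 with a library left out (28 of 7816 to 2528 of 8126 genes). For the difference between the models it was 1, 0 by the criterion, at an adjusted p, in DESeq2, in limma-voom, under both total-count scalings and at the minimum of 10 counts, 2 without a filter (691 of 11692 genes), and 0 to 2 with a library left out (78 to 2262 genes). Between the models before CMG it was 0, 1 under total counts outside the hemoglobin genes, and 0 to 1 with a library left out (103 to 799 genes). After CMG it was 1, 0 by the criterion, at an adjusted p, in limma-voom, under both total-count scalings and at the minimum of 10 counts, and 0 to 3 with a library left out (106 to 2088 genes). The cause of these moves was not tested. Total counts shifted the median log2 fold change of all genes to 0.36 in AngII and -0.76 in DOCA–HS, where 1 member was then above 0 and 9 below, against 4 and 6 with TMM. Same-numbered libraries deviated together from their group means (r = 0.474 across genes in AngII, 0.321 in DOCA–HS), but with 2 numbers a model these do not show a pairing. With the replicate block, Bak1 in AngII was 1.03 and 1 member was called in AngII (982 of 7201 genes, against 479 without it), where Bak1 was among 165 genes with an adjusted p under 0.05 (0 genes without the block), 0 in DOCA–HS (Bad -1.68, 318 genes) and 1 for the difference between models. The block was not run between models before or after CMG, which compare different rats. Adding 2 in place of 0.5 to each count moved the mean difference of the Bcl2 to Bcl2l11 ratio in DOCA–HS from -0.85 to -0.12.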
